A study of Rattus norvegicus with 56 samples.

Results

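MiR-208a, miR-208b and miR-499 are the microRNAs carried in introns of the myosin heavy chain genes. Both arms of each were taken by name from the deposited rat count tables, with the species prefix removed: miR-208a-3p, miR-208a-5p, miR-208b-3p, miR-208b-5p, miR-499-5p and miR-499-3p. These are 6 of the 682 microRNAs listed in any of the 5 tables. All 6 are listed in myocardium (of 661 microRNAs), and 4 are listed in amniotic fluid (of 523) and in maternal serum (of 518), where miR-208b-5p and miR-499-3p have no entry. The members were picked by name.

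Small RNA was sequenced from 56 samples of Sprague-Dawley rats carrying fetuses at embryonic day 19, to compare fetuses with a ventricular septal defect (VSD) with those without. In the NC group the dams received distilled water. In the non-VSD and VSD groups the dams received dimethadione (DMO), an anticonvulsant metabolite that causes heart defects in rat fetuses, as 6 gavages of 5 ml/kg at 60 mg/ml that started on day 8 and were spaced 12 h apart. Both of these groups were thus exposed to DMO and differ by label in whether the fetus had the defect. Myocardium RNA came from paraffin-embedded fetal hearts, amniotic fluid RNA from the supernatant, and each of these tissues had 7 samples in each group. Maternal serum had 7 NC and 7 VSD samples, so DMO exposure and VSD cannot be told apart there. The dam and litter of a sample are not given in the sources used here, so the tests measure the spread between these samples only.

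A microRNA gene makes a hairpin RNA, and either strand of it, the 5p or the 3p arm, can be kept as the mature microRNA. The target is chosen mainly by the seed, bases 2 to 8 of the mature strand. MiR-208a lies within Myh6, the gene of the alpha myosin heavy chain, miR-208b within Myh7, the gene of the beta chain, and miR-499 within Myh7b. Each is known to be made with its host, in heart muscle for miR-208a, and in heart and slow skeletal muscle for the other two. In rodent ventricles the beta chain is the main form before birth and the alpha chain after it, so the balance of miR-208b to miR-208a is a microRNA readout of that exchange.

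All 6 members matched an entry of RefSeq's rat sequences (build GRCr8). They are printed from the 5′ end to the 3′ end, with the seed in capitals, because the seed decides which members can share targets and because near-identical strands bear on how their reads can be told apart.

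miR-208a-3p: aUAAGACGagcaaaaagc
miR-208b-3p: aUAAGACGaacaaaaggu
miR-499-5p: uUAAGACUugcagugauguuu
miR-208a-5p: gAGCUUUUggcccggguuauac
miR-208b-5p: aAGCUUUUugcucgcguuau
miR-499-3p: aACAUCACagcaagucugugcu

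MiR-208a-3p and miR-208b-3p share their seed, and 15 of their 18 bases are the same. Counted from 1 at the 5′ end of miR-208a-3p, the differences are G10A, A16G and C18U. No other of the 693 mature rat microRNAs in the table has this seed, which 2 hold, and the seed of miR-499-5p matches it at 6 of 7 positions. The 5p arms of miR-208a and miR-208b share a seed as well, with 16 of 20 bases the same (G1A, G9U, C12U and G15C). How reads of such near-identical strands were assigned during counting is not given in the sources used here, so the split between miR-208a and miR-208b carries that uncertainty. In the annotation, miR-208a-3p lies at chr15:32395568-32395585 on the minus strand inside Myh6, and miR-208b-3p at chr15:32421648-32421665 on the minus strand inside Myh7. The hairpins of the pair are 25980 bases apart. MiR-499-5p lies at chr3:164570616-164570636 on the plus strand inside Myh7b. The positions are those of GRCr8 and were not used in the counting described here.

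Total counts ran from 1694811 to 9371130 per myocardium library, from 78188 to 331787 in amniotic fluid and from 147609 to 581350 in maternal serum. With a count of 0 the level could still be 1.77 CPM (counts scaled to a total of 1e6) in the smallest myocardium library, 38.4 CPM in the smallest of amniotic fluid and 20.3 CPM in the smallest of serum, for counting error only. In myocardium 3 libraries stood apart before any group was compared. NC replicate 2, VSD replicate 1 and VSD replicate 4 had a heart and skeletal muscle score (mean log2 CPM of miR-1-3p, miR-1b, miR-133a-3p and miR-133b-3p) of 10.10, 10.13 and 10.69, against 11.83 to 13.87 in the other libraries. The same libraries and VSD replicate 5 had the highest scores for epithelial microRNAs, 9.95 (NC replicate 2), 10.10 (VSD replicate 1), 9.64 (VSD replicate 4) and 9.77 (VSD replicate 5), against 3.84 to 8.54. In bulk samples, fewer cells of a type and less RNA per cell cannot be told apart.

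In NC myocardium the order of the members was miR-499-5p, miR-208b-3p, miR-208a-3p, miR-208b-5p, miR-208a-5p and miR-499-3p, at ranks 47, 102, 246, 343, 393 and 456 of the listed microRNAs. MiR-499-5p had 400998 raw counts over the 21 libraries, miR-208b-3p 105120 and miR-208a-3p 8813. The passenger arms were rare, with 1497 counts of miR-208b-5p, 820 of miR-208a-5p and 414 of miR-499-3p. Mature microRNAs are read whole, so counts were not divided by length, and levels below are CPM scaled by TMM, a method that assumes that most microRNAs do not change.

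MiR-499-5p, the guide strand from Myh7b, was at 300.5 to 5212 CPM in the NC myocardium (median 3201, mean 3269 ± 1781, SD, n = 7). In the VSD myocardium it was at 422 to 4963 CPM (median 1973, mean 2293 ± 1581, SD, n = 7), and in the non-VSD myocardium at 2641 to 5144 CPM (median 4435, mean 3959 ± 963, SD, n = 7). The lowest values were NC replicate 2 (300.5), VSD replicate 4 (422) and VSD replicate 1 (761), which are the libraries with low muscle scores. No non-VSD sample came near them, yet the 3 groups overlapped widely.

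MiR-208b-3p, the strand made with the beta myosin heavy chain, showed the same shape at a lower level. It lay between 47.3 and 1364 CPM in NC (median 681, mean 774 ± 436, SD, n = 7), between 43.0 and 1589 CPM in VSD (median 425, mean 613 ± 513, SD, n = 7), and between 628 and 1585 CPM in non-VSD myocardium (median 1104, mean 1053 ± 389, SD, n = 7). NC replicate 2 (47.3) and VSD replicate 4 (43.0) again were lowest, and the highest sample of all was VSD replicate 7 (1589). The ranges of the 3 groups overlapped.

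MiR-208a-3p, the strand made with the alpha myosin heavy chain, was at a lower level still. It was at 24.1 to 82.5 CPM in NC (median 52.3, mean 54.3 ± 21.6, SD, n = 7), at 44.0 to 104.7 CPM in VSD (median 57.6, mean 64.6 ± 20.2, SD, n = 7) and at 36.1 to 157 CPM in non-VSD (median 77.0, mean 80.0 ± 42.4, SD, n = 7). NC replicate 2 was the lowest sample here too, but VSD replicate 4, the lowest for miR-208b-3p, was at 55.7 CPM, near the middle of its group. The highest value belonged to non-VSD replicate 6. The SD of log2 CPM was 0.63 in NC and 0.41 in VSD, against 1.64 and 1.68 for miR-208b-3p, but in non-VSD it was 0.77 against 0.55.

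The passenger arms were near the limit of the depth in some libraries. MiR-208b-5p ranged from 0.866 to 23.4 CPM in NC, from 0.253 to 37.8 in VSD and from 5.48 to 18.1 in non-VSD, with medians of 7.83, 6.22 and 9.71. MiR-208a-5p ranged from 2.69 to 10.03 CPM in NC, from 1.29 to 15.2 in VSD and from 3.56 to 6.82 in non-VSD, with medians of 5.41, 4.25 and 6.04. MiR-499-3p had medians of 2.10 (NC), 2.80 (VSD) and 3.72 CPM (non-VSD), with a lowest value of 0.173 and a highest of 6.84. For each of these strands the groups overlapped.

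**Figure D1:**
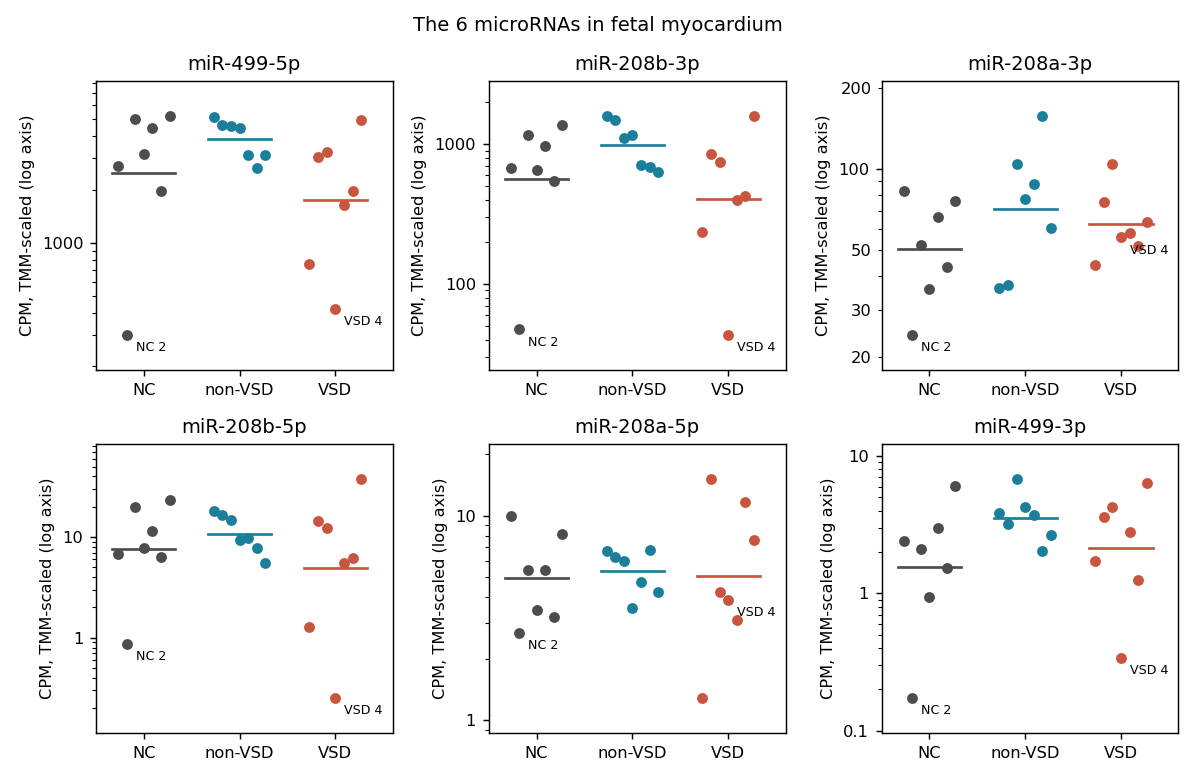
Level of each member in the 21 myocardium libraries, as TMM-scaled CPM on a log axis. Points are samples, coloured by group, and the line is the geometric mean of a group. NC replicate 2 and VSD replicate 4 are labelled and lie lowest for miR-208b-3p (47.3 and 43.0 CPM) and miR-499-5p (300.5 and 422 CPM). For miR-499-5p, VSD replicate 1, not labelled, comes next at 761 CPM.

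Each DMO group was set against NC to ask whether these microRNAs differed with exposure, and VSD was set against non-VSD to ask whether they differed with the defect at like exposure. The comparisons with NC share its 7 samples. In edgeR's quasi-likelihood test all 6 members passed the filter on low counts in each comparison, and 0 of 6 reached a Benjamini-Hochberg adjusted p under 0.05. Of all microRNAs tested, 0.426% of 469 did so for VSD against NC, 0.219% of 456 for non-VSD against NC and 0.0% of 483 for VSD against non-VSD. An unadjusted p under 0.05 was likewise reached by 0 of 6 members, beside 19.2%, 17.5% and 11.6% of all microRNAs. At the threshold used in the study, an unadjusted p under 0.05 together with a doubling or halving or more, the members again numbered 0 of 6, beside 6.82%, 4.17% and 5.18% of all microRNAs tested. Likewise no member had groups without overlap, where the share of all microRNAs with a count was 0.454%, 1.07% and 0.304%. DESeq2 and limma also called 0 of the 6 at an adjusted p under 0.05 in each of these comparisons.

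MiR-499-5p had a log2 fold change of -0.51 in VSD against NC (edgeR, standard error 0.55, adjusted p = 0.616), of 0.33 in non-VSD against NC (standard error 0.41, adjusted p = 0.772) and of -0.79 in VSD against non-VSD (standard error 0.48, adjusted p = 0.473). MiR-208b-3p gave -0.33 (standard error 0.64, adjusted p = 0.790), 0.50 (standard error 0.47, adjusted p = 0.653) and -0.78 (standard error 0.57, adjusted p = 0.504) in the same order. In both of these strands the point estimate was below 0 in VSD and above 0 in non-VSD, with standard errors of about the size of the changes. These standard errors were derived from the edgeR test statistic, so they restate the test and are no separate measure of precision. For miR-208b-3p the sign in VSD against NC depended on the scaling, with a log2 fold change of 0.11 when only library totals were used, and that of miR-499-5p was then -0.05.

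A single-value comparison of the same levels put 6 of 7 VSD samples below the non-VSD median for each of these strands. The mean log2 CPM of miR-499-5p differed between VSD and non-VSD by -1.14 (exact permutation test, two-sided, p = 0.0338, adjusted p = 0.491 over 34 such tests). For miR-208b-3p the difference was -1.30 (exact permutation p = 0.0524, adjusted p = 0.491). A single sample weighed on this comparison. Without VSD replicate 7, the edgeR log2 fold changes in VSD against non-VSD were -1.22 for miR-208b-3p (fold 0.429, adjusted p = 0.314) and -1.09 for miR-499-5p (fold 0.469, adjusted p = 0.305), and 2 members then met the threshold of the study, as did 6.58% of the 486 microRNAs in that fit. Without NC replicate 2 and VSD replicate 4 together, edgeR gave -0.58 (adjusted p = 0.496) and -0.61 (adjusted p = 0.415) for these strands. VSD replicate 1, which also stood apart by its muscle score, was kept in that fit.

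MiR-208a-3p had log2 fold changes of 0.24 in VSD against NC (edgeR, standard error 0.28, adjusted p = 0.644), 0.59 in non-VSD against NC (standard error 0.34, adjusted p = 0.411) and -0.31 in VSD against non-VSD (standard error 0.32, adjusted p = 0.622). Scaling by library totals alone moved the log2 fold change of a microRNA by a median of 0.39 in VSD against NC and of 0.21 in non-VSD against NC, and miR-208a-3p then stood at 0.68 (edgeR, adjusted p = 0.122) and 0.88 (adjusted p = 0.174).

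Among the passenger arms, the point estimates for VSD against NC were 0.29 for miR-208a-5p, 0.03 for miR-208b-5p and 0.30 for miR-499-3p, with edgeR standard errors of 0.48, 0.79 and 0.63. In non-VSD against NC they were 0.05, 0.16 and 0.80, and the last, that of miR-499-3p, had an adjusted p of 0.485 in edgeR. It met the threshold of the study without NC replicate 7, at a log2 fold change of 1.25 (edgeR, adjusted p = 0.182), as did 5.26% of all microRNAs in that fit.

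**Figure D2:**
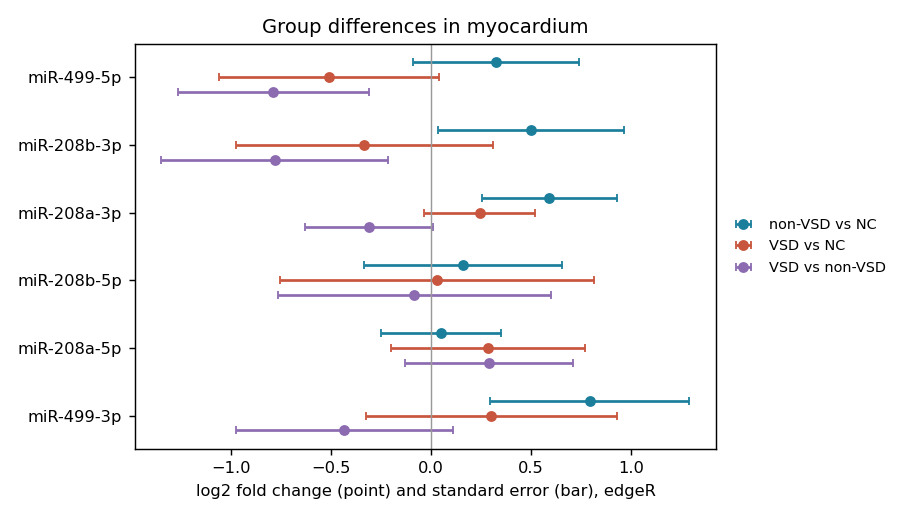
Log2 fold change of each member in the 3 myocardium comparisons, with bars for the standard error derived from the edgeR test statistic. The values run from -0.79 to 0.80, and for miR-208b-3p and miR-499-5p the points lie below 0 in VSD against NC, above 0 in non-VSD against NC and lowest in VSD against non-VSD.

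The balance of miR-208b-3p to miR-208a-3p was read within each library, so that the library total cancels. In NC replicates 1 to 7 the ratio of counts was 8.26, 1.96, 22.2, 18.3, 14.6, 12.5 and 17.9. In VSD it was 5.36, 11.3, 7.16, 0.773, 6.87, 8.24 and 25.1, and in non-VSD 43.9, 40.1, 10.5, 15.2, 8.17, 4.41 and 10.4. MiR-208b-3p exceeded miR-208a-3p in 20 of the 21 libraries, the exception being VSD replicate 4, and the medians were 14.6 (NC), 7.16 (VSD) and 10.5 (non-VSD).

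MiR-208b-3p made up 92.7% of the pooled reads of both 3p strands in NC (exact binomial 95% interval 92.3 to 93.0), 90.5% in VSD (90.2 to 90.8) and 93.4% in non-VSD (93.1 to 93.6). These intervals cover counting error only, and the spread between libraries was much wider. On the log2 scale the balance differed by -0.78 between VSD and NC (interval -2.38 to 0.72, exact permutation p = 0.332, adjusted p = 0.553 over 10 balance tests), and by -0.27 without VSD replicate 4. It differed by 0.33 between non-VSD and NC (interval -1.02 to 1.78, exact permutation p = 0.622) and by -1.11 between VSD and non-VSD (interval -2.71 to 0.44, exact permutation p = 0.159, adjusted p = 0.504), or by -0.60 without VSD replicate 4. No shift of the balance was shown, and these intervals leave room for changes of more than 2 log2 units downward in VSD.

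The balance of miR-499-5p to the sum of both miR-208 3p strands was, by contrast, tight. The ratio was 3.57, 4.21, 4.14, 4.66, 4.30, 3.38 and 3.62 in NC replicates 1 to 7. It was 2.72, 3.28, 3.81, 4.27, 3.60, 4.14 and 3.003 in VSD and 3.17, 3.04, 3.81, 3.56, 3.92, 3.11 and 4.54 in non-VSD. Of the 3 libraries with the lowest miR-499-5p levels, NC replicate 2 (4.21) and VSD replicate 4 (4.27) had ratios within the range of the rest and VSD replicate 1 had the lowest ratio of all (2.72). The SD on the log2 scale was 0.17 in NC, 0.24 in VSD and 0.21 in non-VSD.

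The ratio differed by -0.17 on the log2 scale between VSD and NC (interval -0.37 to 0.03, exact permutation p = 0.143) and by -0.15 between non-VSD and NC (interval -0.35 to 0.05, exact permutation p = 0.158). Between VSD and non-VSD it differed by -0.02 (interval -0.27 to 0.23, exact permutation p = 0.850). These intervals reach no farther than 0.37 log2 units from 0, whereas the lowest bound for the miR-208b-3p to miR-208a-3p balance was -2.71.

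**Figure D3:**
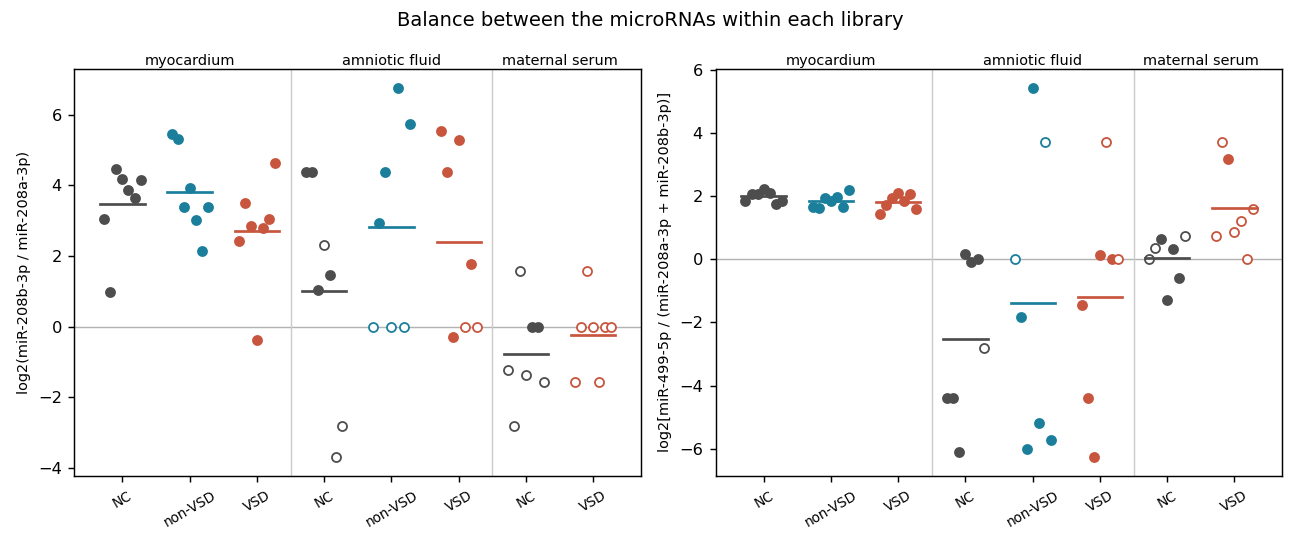
Within-library balances on a log2 scale for every sample of the 3 tissues, miR-208b-3p to miR-208a-3p in the left panel and miR-499-5p to the sum of both miR-208 3p strands in the right. Lines are group means, open circles mark ratios that rest on fewer than 10 counts, and myocardium spans 0.773 to 43.9 as a ratio in the left panel but only 2.72 to 4.66 in the right.

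Across the 21 myocardium libraries miR-208b-3p and miR-499-5p, which come from separate chromosomes, rose and fell together. Pearson's r of their log2 CPM was 0.98 (permutation p = 1e-05, the smallest that 100000 permutations can give, adjusted p = 0.00024 over 24 relations) and Spearman's rho was 0.94. Within NC r was 0.99, within VSD 0.97 and within non-VSD 0.94, and it was 0.957 without NC replicate 2 and VSD replicate 4, the samples farthest from the median.

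For miR-208b-3p and miR-208a-3p, neighbours on chromosome 15 with the same seed, r was 0.36 (permutation p = 0.116, adjusted p = 0.180) and rho 0.25 (permutation p = 0.271). Within groups r was 0.80 in NC, 0.46 in VSD and -0.66 in non-VSD (exact permutation p = 0.120), the last at 0.007 without the 2 farthest samples, and the difference between groups was not tested. Without NC replicate 2 and non-VSD replicate 6, the samples farthest from the median of miR-208a-3p, r was 0.121.

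The heart and skeletal muscle score, which holds none of the members, moved with miR-208b-3p and miR-499-5p. For miR-208b-3p r was 0.83 (permutation p = 0.00011, adjusted p = 0.00088) and rho 0.64, with r of 0.99 in NC, 0.76 in VSD and 0.11 in non-VSD, and of 0.757 without NC replicate 2 and VSD replicate 1. For miR-499-5p r was 0.87 (permutation p = 3e-05, adjusted p = 0.00036) and rho 0.66, with r of 0.99 in NC, 0.86 in VSD and -0.20 in non-VSD. For miR-208a-3p r was 0.31 (permutation p = 0.173) and rho 0.13. The non-VSD group, in which r was near or below 0, holds none of the 3 libraries that stood apart, and the difference in r between groups was not tested. The 4 microRNAs of the score summed to 12937 to 238694 CPM in NC (median 96173), 13277 to 90491 CPM in VSD (median 47621) and 51093 to 107123 CPM in non-VSD (median 80461). The epithelial list summed to 251 to 14234 CPM in NC (median 1366), 1984 to 15250 CPM in VSD (median 3265) and 322 to 6580 CPM in non-VSD (median 1697). Red blood cell microRNAs had a median sum of 33796 CPM in NC, 7523 in VSD and 7004 in non-VSD. White blood cell microRNAs had 1523, 571 and 525 CPM in the same order, and for both lists the ranges overlapped. The part of any of these lists in the group values of miR-208b-3p and miR-499-5p was not tested.

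**Figure D4:**
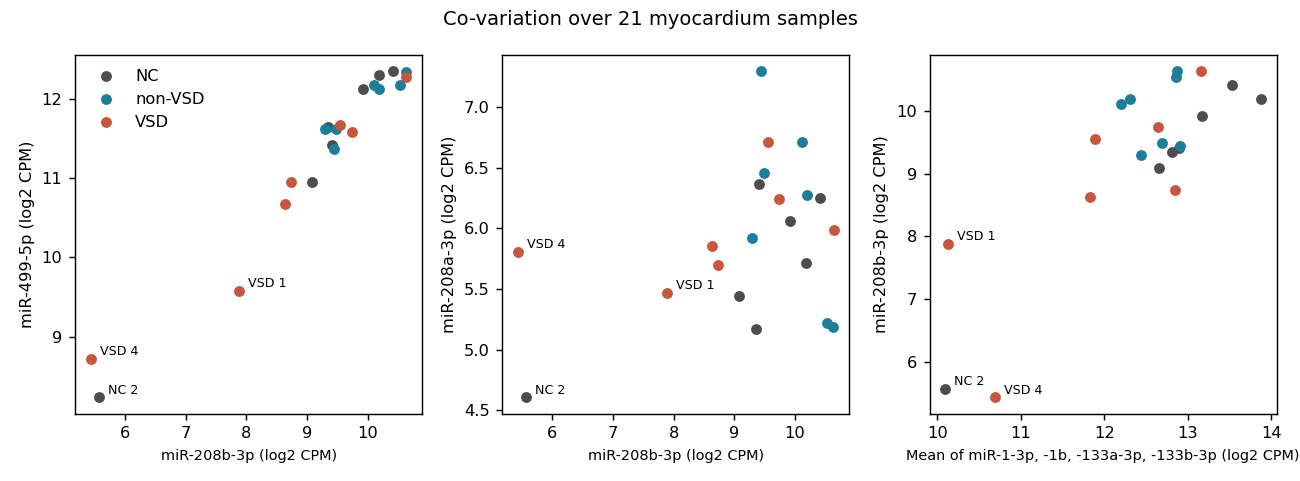
Log2 CPM of the members against each other and against the heart and skeletal muscle score in the 21 myocardium libraries, coloured by group. MiR-208b-3p and miR-499-5p fall on a line (r = 0.98), miR-208b-3p and miR-208a-3p do not (r = 0.36), and NC replicate 2, VSD replicate 1 and VSD replicate 4 lie at the low end of the muscle score.

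As a description over the same 21 libraries, each member was set against the 483 microRNAs that passed the filter. The nearest to miR-208b-3p by Spearman's rho were miR-208b-5p (0.947), its own other arm, then miR-499-5p (0.938) and miR-547-3p (0.869). Those nearest to miR-499-5p were miR-208b-3p (0.938), miR-208b-5p (0.919) and miR-201-5p (0.878). For miR-499-3p they were miR-335 (0.826), miR-208b-3p (0.795) and miR-208b-5p (0.761).

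The list of miR-208a-3p held mostly other microRNAs. The nearest to miR-208a-3p were miR-130a-5p (0.569), miR-499-3p (0.565) and let-7a-2-3p (0.558), while miR-208b-3p came at place 63, miR-499-5p at place 104 and its own other arm, miR-208a-5p, at place 22 with a rho of 0.381. For miR-208a-5p the nearest were miR-490-3p (0.804), miR-22-5p (0.796) and miR-500-3p (0.796). All these values share the same libraries and their depths.

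The rarer arm made up unequal shares of the reads of the 3 hairpins. In NC myocardium 9.30% of miR-208a reads were of the 5p arm (exact binomial 95% interval 8.14 to 10.6), against 1.39% for the 5p arm of miR-208b and 0.0779% for the 3p arm of miR-499. In VSD the shares were 9.67%, 1.80% and 0.129%, and in non-VSD 6.71%, 1.12% and 0.101%. The miR-208a share varied among the VSD samples from 2.85% to 18.4%. Of the arm ratios, that of miR-499 was higher in VSD than in NC by 0.89 on the log2 scale (exact permutation p = 0.0169, adjusted p = 0.0845 over 10 arm tests), which rests on the few counts of miR-499-3p.

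In amniotic fluid the members were rare. MiR-208b-3p had 10, 10, 23, 7, 12, 0 and 0 counts in NC replicates 1 to 7, 23, 10, 17, 19, 0, 8 and 0 in VSD, and 0, 95, 31, 0, 54, 0 and 26 in non-VSD. It had 345 counts in 14 of the 21 libraries, and its lowest count above 0 was 7. The highest counts belonged to non-VSD samples, as did 3 of the 7 libraries at 0, and the groups overlapped.

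MiR-499-5p had 0, 0, 0, 9, 15, 6 and 0 counts in NC, 8, 0, 0, 21, 6, 10 and 0 in VSD, and 0, 30, 0, 21, 1, 6 and 0 in non-VSD fluid. MiR-208a-3p had 0, 0, 11, 1, 4, 6 and 3 counts in NC, 0, 0, 21, 0, 0, 2 and 0 in VSD, and 0, 12, 1, 0, 0, 0 and 0 in non-VSD. It was thus detected in 5 NC libraries and in 2 of each DMO group. MiR-208a-5p had 4 counts in NC replicate 1 and 9 in VSD replicate 4, and 0 elsewhere.

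Only miR-208b-3p passed the filter in amniotic fluid. Its log2 fold change was 0.13 in VSD against NC (edgeR, standard error 0.98, adjusted p = 0.945), 1.35 in non-VSD against NC (standard error 1.18, adjusted p = 0.615) and -1.21 in VSD against non-VSD (standard error 1.19, adjusted p = 0.857). In edgeR it was called in 0 of these 3 comparisons, where 0.0%, 4.96% and 0.0% of all microRNAs reached an adjusted p under 0.05. At an unadjusted p under 0.05 it was again called in 0, beside 13.5%, 19.4% and 10.6%, and at the threshold of the study in 0, beside 6.94%, 12.4% and 3.3%. The paper's own fits, made with other tools, list miR-208b-3p as upregulated in non-VSD against NC amniotic fluid. No member had groups without overlap, which 0.0%, 0.986% and 0.0% of the microRNAs with a count had. No change was shown in edgeR, and the standard errors were about as large as the changes or larger.

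MiR-208b-3p was 71.3% of the pooled 3p reads of both miR-208 genes in NC amniotic fluid (62 of 87, exact binomial 95% interval 60.6 to 80.5), 77.0% in VSD (77 of 100, interval 67.5 to 84.8) and 94.1% in non-VSD (206 of 219, interval 90.1 to 96.8). Over samples the balance differed by 1.82 on the log2 scale between non-VSD and NC (interval -1.73 to 5.42, exact permutation p = 0.290, adjusted p = 0.553) and by 1.37 between VSD and NC (interval -2.03 to 4.87, exact permutation p = 0.392). In 3 non-VSD and 2 VSD libraries neither strand had a count, so that their balance was set by the pseudocount alone. No NC library was in this state. These differences therefore mix measured ratios with libraries that carry none, and no conclusion was drawn from them. The pooled shares rest on a few libraries, above all non-VSD replicate 2, which gave 95 of the miR-208b-3p counts. Summed heart and skeletal muscle microRNAs ran from 123 to 1800 CPM in NC fluid (median 339), from 84.1 to 8482 in VSD (median 818) and from 10.97 to 1735 in non-VSD (median 920), and their part in these values was not tested.

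In maternal serum every member was below the filter, above which 0.0% of 219 microRNAs reached an adjusted p under 0.05 and 13.7% an unadjusted p under 0.05. MiR-208a-3p had 3, 3, 1, 6, 6, 7 and 1 counts in NC replicates 1 to 7 and 1, 0, 0, 1, 1, 0 and 0 in VSD. MiR-208b-3p had 1, 0, 4, 2, 6, 7 and 0 counts in NC and 0, 0, 1, 1, 0, 0 and 0 in VSD. For both strands the VSD libraries lay at the low end, though they overlapped with the lowest NC libraries, and the VSD libraries were also the smaller, with 1966622 counts in all against 3008201.

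For miR-499-5p, the strand from Myh7b, the counts were 4, 4, 8, 3, 15, 9 and 2 in NC and 2, 6, 13, 4, 3, 0 and 1 in VSD. MiR-208a-5p had 5, 0, 1, 2, 6, 6 and 2 counts in NC and 2, 0, 3, 2, 0, 2 and 0 in VSD. Groups overlapped for both, and of all serum microRNAs with a count 0.386% had groups without overlap.

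Over the pooled libraries of a group, miR-208a-3p was at 8.98 CPM in NC serum (exact Poisson interval 5.91 to 13.1) and at 1.53 CPM in VSD serum (0.315 to 4.46). MiR-208b-3p was at 6.65 CPM (4.06 to 10.3) and 1.02 CPM (0.123 to 3.67). MiR-499-5p was at 14.96 CPM (10.9 to 20.02) and 14.7 CPM (9.88 to 21.2). These intervals cover counting error in the pooled reads only and are no test between the groups.

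Over samples, miR-208a-3p differed between VSD and NC serum by -0.96 in mean log2 CPM, and 0 of 7 VSD libraries exceeded the median of NC (two-sided exact permutation p = 0.0076, adjusted p = 0.258 over 34 tests). MiR-208b-3p differed by -0.76 (exact permutation p = 0.0659, adjusted p = 0.491) and miR-499-5p by -0.18 (exact permutation p = 0.715). No difference held after adjustment. Without a filter, edgeR gave log2 fold changes of -2.34 for miR-208a-3p (adjusted p = 0.255) and -2.41 for miR-208b-3p (adjusted p = 0.316), so 2 members met the threshold of the study, as did 6.56% of the 518 microRNAs in that fit. With the filter 4.57% of 219 met it. The paper's own fits, made with other tools, list miR-208a-3p and miR-208b-3p as downregulated in VSD serum. By qRT-PCR the paper also reports miR-208b-3p as differentially expressed there, and its discussion names the direction in circulation as down.

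The serum balance of miR-499-5p to the miR-208 3p strands was higher in VSD than in NC by 1.59 on the log2 scale (interval 0.39 to 2.84, exact permutation p = 0.0122, adjusted p = 0.0857 over 7 tests). It was 1.86 without VSD replicate 6, with an adjusted p of 0.00816 in the exact permutation test, but in that library the 3 strands of the ratio all had 0 counts, so that its ratio was set by the pseudocount alone. The VSD ratios rest on 5 counts of the miR-208 3p strands over all 7 libraries, and no difference was drawn from them. Summed heart and skeletal muscle microRNAs were at 3339 to 16817 CPM in NC serum (median 8702) and at 1802 to 14096 CPM in VSD serum (median 4812), and red blood cell microRNAs at 66896 to 192852 (median 87506) and 43932 to 111149 CPM (median 81307). Their part in the serum values was not tested.

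**Figure D5:**
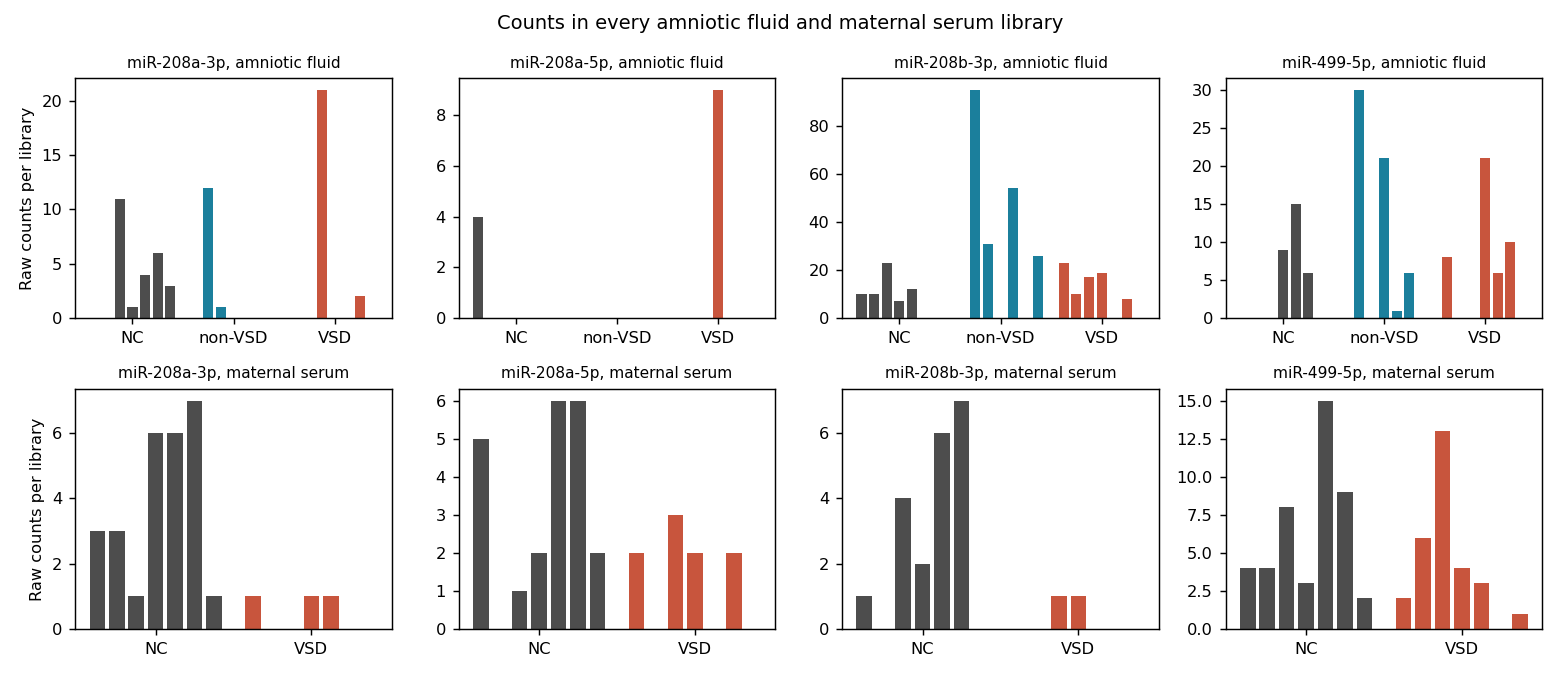
Raw counts of miR-208a-3p, miR-208a-5p, miR-208b-3p and miR-499-5p in each amniotic fluid and maternal serum library, as bars from 0. In amniotic fluid the strands are at 0 in many libraries and reach 95 counts in non-VSD replicate 2, and in serum miR-208a-3p is at 1 to 7 counts in NC and at 0 or 1 in VSD.

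In the NC group the balance of the miR-208 genes differed between myocardium and serum. For the other tissue pairs no difference held after adjustment. NC myocardium was higher than NC amniotic fluid by 2.46 log2 units (interval -0.34 to 5.31, exact permutation p = 0.0845, adjusted p = 0.422). NC amniotic fluid was higher than NC serum by 1.79 (interval -1.21 to 4.64, exact permutation p = 0.202, adjusted p = 0.504). MiR-208b-3p was 42.6% of the pooled 3p reads in NC serum (20 of 47, exact binomial 95% interval 28.3 to 57.8) and exceeded miR-208a-3p in 1 of 7 NC serum libraries, with miR-208a-3p higher in 4 and equal counts in the rest, against 92.7% and 7 of 7 in NC myocardium. In VSD serum there were 2 of 5 reads of miR-208b-3p, or 40.0% (5.27 to 85.3). On the log2 scale the NC myocardium balance was higher than that of NC serum by 4.25 (interval 2.70 to 5.70, exact permutation p = 0.0012, adjusted p = 0.0117 over 10 tests), a ratio of 19.03, although NC replicate 2 of the myocardium overlapped with serum. Without that replicate the difference was 4.67. Among libraries with at least 10 counts behind the ratio it was 3.48 (exact permutation, adjusted p = 0.278). Only replicates 5 and 6 of NC serum were left there, too few for that test to reach an adjusted p under 0.05. Serum is maternal and myocardium fetal, and the extraction differed between them, so tissue, age and extraction cannot be told apart here.

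The arm balance of miR-208a differed in the same samples. The 5p arm was 44.9% of miR-208a reads in NC serum (22 of 49, interval 30.7 to 59.8), 75.0% in VSD serum (9 of 12) and 9.30% in NC myocardium. The log2 ratio of the 5p to the 3p arm differed between NC myocardium and NC serum by -2.89 (exact permutation p = 0.000583, adjusted p = 0.00583 over 10 arm tests), a comparison chosen after the values had been seen.

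The change of miR-208a-3p in VSD against NC was also compared between tissues. It was higher in myocardium than in serum by 1.27 on the log2 CPM scale (permutation p = 0.0058, adjusted p = 0.0698 over 12 tests), and by 1.66 with scaling by library totals alone (permutation, adjusted p = 0.00264). In non-VSD against NC it was higher in myocardium than in amniotic fluid by 1.29 (permutation p = 0.0421, adjusted p = 0.253). The prior count of 2 draws low counts together, so changes in the fluids are not on the same scale as those in myocardium. Libraries at 0 counts of miR-208a-3p stood at 2.52 log2 CPM in serum and 3.69 in amniotic fluid. Its lowest count in myocardium was 114. The extraction kit differed between the tissues, and amniotic fluid also had another library kit and sequencer. Changes were therefore taken within a tissue before they were compared.

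Other muscle microRNAs were followed as 9 names, both arms of miR-1, miR-133a, miR-133b and miR-206 with miR-1b, which act in heart and skeletal muscle differentiation. In myocardium 6 were tested in each comparison and 0 of 6 reached an adjusted p under 0.05 in edgeR. In VSD against NC 6 of 6 had a log2 fold change below 0, with a median of -0.83 beside 53.3% and a median of -0.05 over all tested microRNAs, and 2 had an unadjusted p under 0.05, miR-1b (-1.03) and miR-206-3p (-2.91, edgeR adjusted p = 0.149), beside 19.2% of all microRNAs tested. The value of miR-206-3p rests on NC replicates 4 (1659 CPM) and 6 (3249 CPM), since the other NC libraries were at 24.9 to 151 CPM and the median was 50.5 CPM in NC and 66.6 CPM in VSD. In non-VSD against NC 5 of 6 were below 0, with a median of -0.39 beside 56.6% and -0.07. In VSD against non-VSD 6 of 6 were below 0, with a median of -0.33 beside 48.7% and 0.02. The guide strands miR-208b-3p and miR-499-5p lay below 0 in VSD against NC, as this list did, and above 0 in non-VSD against NC, where 5 of the 6 on the list lay below 0.

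In amniotic fluid the medians of the tested muscle microRNAs were 2.15 (VSD against NC, 3 tested), 0.59 (non-VSD against NC, 3 tested) and 1.17 (VSD against non-VSD, 4 tested), beside -0.06, 0.11 and -0.04 over all microRNAs. In serum 4 of 5 were below 0 with a median of -0.52 beside 52.5% and -0.03, miR-206-3p being the exception at 1.08 (edgeR adjusted p = 0.326). None of the tested list members reached an adjusted p under 0.05 in edgeR in either fluid.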

How the data were processed

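For every sample the authors deposited raw read counts per mature rat microRNA, without scaling, and no other deposited values were used. The aligner, annotation and genome build are not given in the sources used here. The submitters' processing notes name bcl2fastq 2.19 and DESeq. The tables also hold the authors' normalized or CPM columns, group means, and their own fold changes and p-values, and none of these was used. NC counts are identical in both tables of a tissue. Whether molecular identifiers were used for amniotic fluid (QIAseq kit, Illumina NovaSeq) is not given. The other tissues used TruSeq libraries and the Illumina HiSeq.

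The tests ran in edgeR 4.0.16 under R 4.3.3 (filterByExpr at 10 counts and a total of 15, TMM, quasi-likelihood test, Benjamini-Hochberg over all tested microRNAs). Each comparison with NC used the 14 samples of its groups, and VSD against non-VSD a fit of all 3 groups. The standard errors are absolute log2 fold changes divided by the square root of edgeR's F statistic. Log2 CPM used a prior count of 2. Balances are log2 ratios of counts with 0.5 added to each, tested by exact two-sided permutation, with intervals by inverting that test. Correlations and differences between tissues used 100000 permutations. Python 3.11.15, scipy 1.17.1 and matplotlib 3.10.9 were used. The scripts were tested on simulated data.

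Other settings tried were DESeq2 1.42.0, limma 3.58.1 (log2 CPM with 1 added), library totals in place of TMM, the filter dropped or set to 10 counts in each library, the other set of groups in the fit, a block for the replicate number, other pseudocounts and summed counts for balances, and each sample left out in turn. Leaving out NC replicate 2 and VSD replicate 4 together, and each sample for single levels in the fluids, were alternatives chosen after seeing the data.

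The text names the 6 members, the fixed list of 9 other muscle microRNAs, and for each member the 3 microRNAs of highest Spearman correlation in myocardium. The members and the lists were chosen with earlier results of these data known.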

Additional observations from a re-analysis of the deposited data

Results flagged for a closer look

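In NC myocardium, replicate 2 lay far below the other 6 samples for 4 of the measures. Its log2 CPM was 5.57 for miR-208b-3p (next lowest 9.08), 0.22 for miR-208b-5p (next lowest 2.74) and 8.23 for miR-499-5p (next lowest 10.95), and its log2 balance of miR-208b-3p to miR-208a-3p was 0.97 (next lowest 3.04). A gap test on the lowest and highest sample picked out these 4 values among 36 sets of 7 samples examined. Chance alone would pick out about 1 in 20 of independent sets, but these sets are not independent. All 4 values come from the same library. Over the 21 myocardium libraries miR-208b-3p moved with miR-208b-5p (rho 0.947) and miR-499-5p (rho 0.938), and it is part of the balance. The same library had the lowest heart and skeletal muscle score of the myocardium libraries and an epithelial score of 9.95. The part of these in its low values was not tested.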

How the results depend on the processing

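No alternative called a member at an adjusted p under 0.05. Of 1111 values of members and balances under alternatives, 1030 kept their sign and their side of the threshold and 78 took the opposite sign, none with an adjusted p under 0.05. The other 3 were 2 that newly passed the threshold and 1 that no longer did. The last was the balance of NC myocardium against NC serum among libraries with at least 10 counts, where the test could not pass. The cause was not tested. The depth of the fluids limits every fluid value, as 0 members in serum and 1 in amniotic fluid passed the filter, and in myocardium NC replicate 2 and VSD replicate 4 weigh on the balance of miR-208b-3p to miR-208a-3p.

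Leaving out NC replicate 2 and VSD replicate 4 together gave log2 fold changes for miR-208b-5p of -0.011 (VSD against NC), -0.052 (non-VSD against NC) and 0.13 (VSD against non-VSD), -0.072 for miR-208a-5p (non-VSD against NC), and -0.089 for the balance of miR-208b-3p to miR-208a-3p (non-VSD against NC). Limma gave -0.36 for miR-208b-5p (VSD against NC), -0.0012 for miR-208a-5p (myocardium VSD against non-VSD) and 0.052 for miR-208b-3p (amniotic fluid VSD against non-VSD). Without a filter, miR-208b-5p was at -0.032 (VSD against NC) and miR-208a-5p at -0.0014 (non-VSD against NC). In those fits 1 member met the threshold of the study in amniotic fluid non-VSD against NC, beside 21.5% of 507 microRNAs. In amniotic fluid VSD against non-VSD the number was 1, beside 16.8% of 523. Each time this was miR-208a-5p, which had counts only in NC replicate 1 (4) and VSD replicate 4 (9). In serum the number was 2, beside 6.56% of 518. With library totals only, miR-208b-3p was at 0.11 (VSD against NC). In myocardium non-VSD against NC, 1 member, miR-499-3p, then met the threshold of the study. Among all 456 microRNAs tested, 16 met it upward and 4 downward. On this scaling mean log2 CPM differences of miR-208a-5p were 0.084 (myocardium VSD against non-VSD) and -0.013 (amniotic fluid VSD against NC). The change of miR-499-5p differed by 0.0012 between myocardium and serum. Only libraries with at least 10 counts gave 3.48 for the balance of NC myocardium against NC serum and -0.19 for that of miR-499-5p to miR-208 in amniotic fluid (non-VSD against NC).

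With each sample left out in turn, VSD against NC in myocardium ran from -0.051 to 0.46 for miR-208a-5p, from -0.75 to 0.28 for miR-208b-5p and from -0.060 to 0.73 for miR-499-3p. Non-VSD against NC ran from -0.072 to 0.26 for miR-208a-5p and from -0.052 to 0.44 for miR-208b-5p. There 0 to 1 members met the threshold of the study, beside 16 to 26 of all microRNAs. VSD against non-VSD ran from -0.030 to 0.48 for miR-208a-5p and from -0.86 to 0.14 for miR-208b-5p. Here 0 to 2 members met that threshold, beside 16 to 37 of all microRNAs. In amniotic fluid miR-208b-3p (VSD against NC) ran from -0.13 to 0.53. The miR-208b-3p to miR-208a-3p balance ran from -1.20 to -0.27 (myocardium VSD against NC), from -1.44 to -0.60 (myocardium VSD against non-VSD), from -0.089 to 0.61 (myocardium non-VSD against NC) and from -0.97 to 0.21 (amniotic fluid VSD against non-VSD). The miR-499-5p balance ran from -0.069 to 0.039 (myocardium VSD against non-VSD), from -0.62 to 1.32 (amniotic fluid VSD against non-VSD) and from 1.24 to 1.86 (serum). Differences in mean log2 CPM in amniotic fluid ran, for VSD against NC, from -0.28 to 0.31 for miR-208a-5p and from -0.25 to 0.47 for miR-208b-3p, for non-VSD against NC from -0.33 to 0.00 for miR-208a-5p, and for VSD against non-VSD from -0.16 to 0.51 for miR-208a-3p, from 0.00 to 0.36 for miR-208a-5p and from -0.13 to 0.43 for miR-499-5p. In serum miR-499-5p ran from -0.40 to 0.081.

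Replicate numbers are shared between groups, and whether they pair the samples is not given in the sources used here. The correlation of same-numbered deviations ran from -0.62 to 0.47, which cannot decide it. With the replicate number as a block, miR-208b-5p (VSD against NC) was at -0.58, and 0 members were called.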

Other observations

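Among the 7 libraries of each group, neither miR-208a-3p nor miR-208b-3p had a count in 2 VSD and 3 non-VSD amniotic fluid libraries and in 3 VSD serum libraries, while each NC library of both fluids held at least 1 count of these strands. A count of 0 in these libraries still allows levels of up to 38.4 CPM in amniotic fluid and 18.04 CPM in serum. Over all groups of amniotic fluid, 76 of 94 microRNAs of like total had at least as many libraries at 0 as miR-208a-3p. For miR-208b-3p it was 23 of 84. In serum it was 50 of 101 for miR-208a-3p and 35 of 101 for miR-208b-3p. The split of zeros between groups was not tested, and the VSD serum libraries were the smaller.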
